A study of Homo sapiens with 2 samples.

Results

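The HOX genes are 39 protein-coding genes in 4 clusters, and every gene whose symbol is HOX followed by A, B, C or D and a number was taken, out of 58051 annotated genes. All 39 were present in both count tables. RNA was sequenced from parental BEAS-2B cells, an immortalised human bronchial epithelial line labelled wild type, and from BEAS-2B cells with overexpressed TRPV3, a cation channel that lets calcium in (labelled TRPV3-OE). There was 1 library per group, of untreated cells harvested at confluence in LHC-9 medium on collagen and fibronectin. The parental cells were between passage 20 and 30 and the TRPV3-OE cells between passage 4 and 8, so passage and transgene cannot be told apart. No source used here gives the vector or promoter of the transgene, or says whether the line is 1 clone.

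HOX genes encode transcription factors that bind DNA through a homeodomain and set position along the body axis during development. Genes with the same number in different clusters are paralogs. Within a cluster all genes are read in the same direction, and the genes at the 3′ end (low numbers) are active nearer the head and earlier than those at the 5′ end (high numbers), an order called collinearity. Polycomb proteins keep HOX genes silent and Trithorax proteins keep them active, so that adult cells often retain a HOX pattern typical of where they came from. HOXA5 and several HOXB genes are known for their part in lung development.

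The HOX pattern of the 2 libraries differed by cluster. HOXA genes were higher in TRPV3-OE cells, led by HOXA10 and HOXA11 among those with at least 100 summed counts. Among those with at least 20, HOXA4 had the largest ratio, which could not be told from that of HOXA10 within counting error. HOXB genes were lower, led by HOXB9 and HOXB2. In the HOXC cluster the 5′ genes HOXC9 and HOXC11 were higher and HOXC8 was lower, and the HOXD genes were near 0 in both libraries. The summed HOX count was 1726 in the parental and 2110 in the TRPV3-OE library, or 101 and 118 CPM (counts per 1000000 scaled counts), a log2 ratio of TRPV3-OE over parental of 0.23 (0.14 to 0.33).

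Total counts were 17450658 and 17477953, and a single read is worth 0.0584 CPM (parental) and 0.0562 CPM (TRPV3-OE). Ranges in parentheses are exact 95% intervals that cover counting error alone, and PCR copies without molecular identifiers are not independent molecules. Since each group is 1 library, differences were not checked against replicates and were not tested. TRPV3 itself had 26 and 54077 counts. All 8 epithelial markers were at 1580 counts or more in both libraries, with EPCAM at 3116 and 4743. Of 4 lung lineage markers FOXA1 (653 and 856) and FOXA2 (362 and 782) were present, whereas NKX2-1, which defines the lineage, was at 0 in both libraries and SOX2 had 1 and 129 counts. Mature airway markers were near absent, with MUC5AC at 5 and 15, SCGB1A1 of club cells at 0 and 0, and FOXJ1 of ciliated cells at 0 and 4. Of 7 markers of fibroblast, endothelial and immune cells, 4 were at 2 counts or fewer (PTPRC at 0 and 0, PDGFRA at 0 and 1, COL1A2 at 1 and 2, CD68 at 1 and 1). The other 3 were COL1A1 at 410 and 285, CDH5 at 268 and 35, and PECAM1 at 14 and 23, and their part in the HOX differences was not tested. Fewer cells with a transcript and less of it per cell cannot be told apart in bulk RNA.

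A gene was measured if it had at least 100 counts summed over both libraries, and called where the ratio was at least 2-fold and the whole interval was on the same side of 1. Of the 39 HOX genes 11 were measured and 28 were not, of which 10 had no read in either library. Of the 11, 2 were called higher, where 5.31% of all 11466 measured genes were, and 5 were called lower, where 5.35% were. Their median log2 ratio was −0.35, against −0.03 for all measured genes. With a minimum of 20 summed counts, 19 HOX genes qualified and 6 were called in each direction, where 7.85% of 13931 genes were called higher and 6.76% lower.

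**Figure D1:**
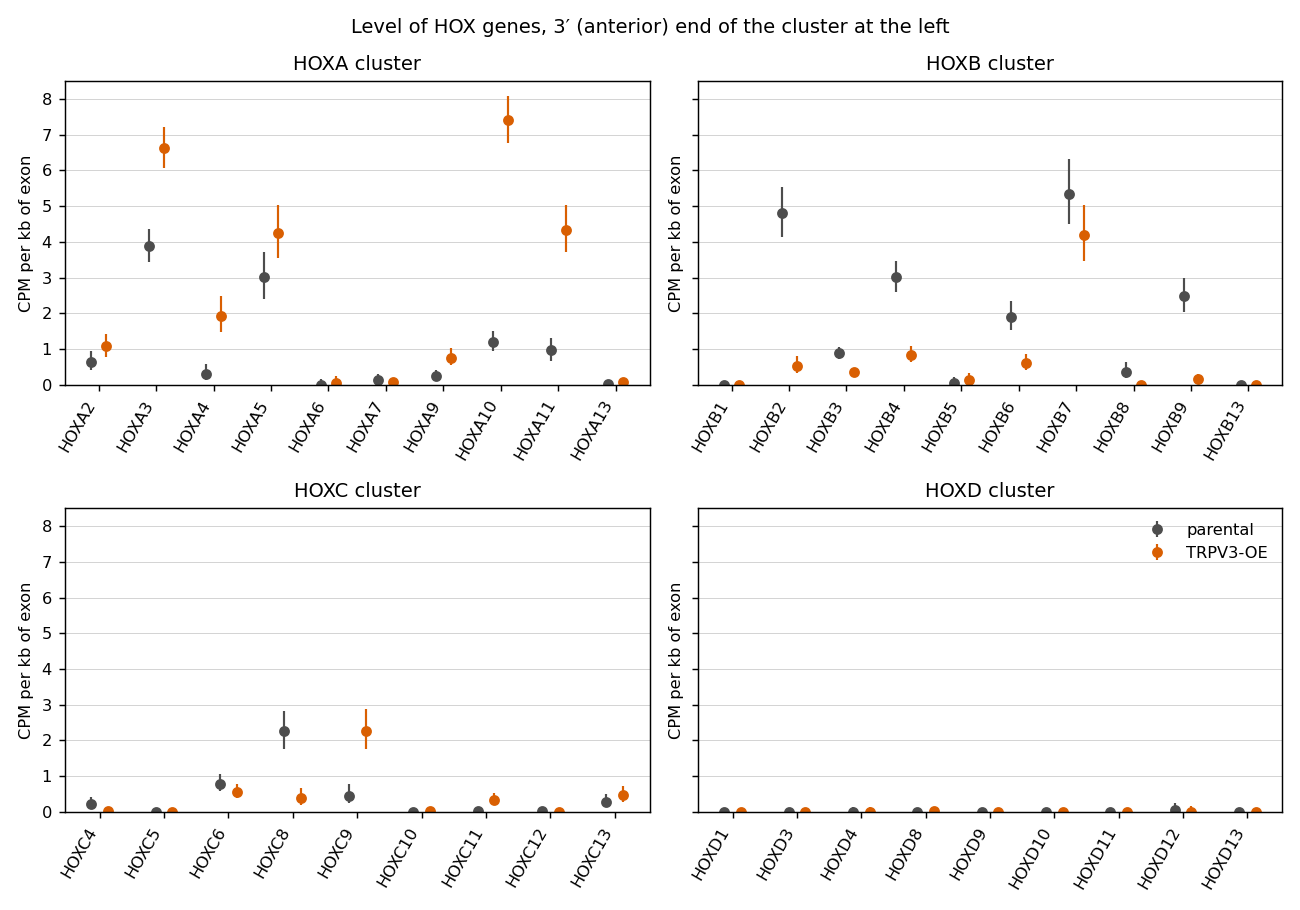
Level of the HOX genes described here in CPM per kb of annotated exon (y axis) in the parental (grey) and TRPV3-OE (orange) library, in order from the 3′ end of each cluster (x axis), with exact 95% Poisson intervals. HOXA10 and HOXA3 are the highest points of the TRPV3-OE library at 7.41 and 6.62, HOXB7 and HOXB2 those of the parental library at 5.35 and 4.80, and the HOXD panel is flat.

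Levels of different genes were compared as CPM per kb of annotated exon. Among the genes described here, HOXB7 stood first in the parental library at 5.35 (4.5 to 6.31), followed by HOXB2 at 4.80 (4.14 to 5.53), and their intervals overlapped. HOXA3 followed at 3.88, then HOXB4 and HOXA5 at 3.01 each, HOXB9 at 2.49 and HOXC8 at 2.26. In the TRPV3-OE library the order was HOXA10 at 7.41 (6.77 to 8.09), HOXA3 at 6.62 (6.06 to 7.23), HOXA11 at 4.33, HOXA5 at 4.24 and HOXB7 at 4.19. The first 2 of these overlapped in their intervals, as did the last 3 among themselves, whereas HOXA3 lay above HOXA11 (3.72 to 5.02). HOXB2 and HOXB9, high in the parental library, were at 0.529 and 0.152 in the TRPV3-OE library.

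The 11 HOXA genes lie on the minus strand of chromosome 7 (GRCh38), with HOXA13 at the 5′ end, from 27193503 to 27200106. Their summed count was 717 (parental) and 1670 (TRPV3-OE), or 41.9 CPM (38.9 to 45.0) against 93.8 CPM (89.3 to 98.4). This is a 2.24-fold higher sum, with a log2 ratio of 1.16 (1.04 to 1.29). All 8 HOXA genes with at least 20 summed counts had ratios above 1. By the rule with that minimum 4 of them were called higher, where 7.85% of 13931 genes were. With the minimum of 100, 2 of 5 were called higher, where 5.31% of all measured genes were. HOXA9 to HOXA13 had 128 and 714 counts in sum (5.37-fold), or 52 and 225 without HOXA10 (4.16-fold), and the genes with lower numbers 589 and 956 (1.56-fold). The largest ratio of a single HOXA gene with at least 20 summed counts was that of HOXA4, among the lower numbers. Its log2 interval (1.66 to 3.88) held that of HOXA10 (2.28 to 3.0). With 5 counts added to each library HOXA10 stood above HOXA4, at 2.55 against 2.16.

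HOXA10 (ENSG00000253293, chromosome 7, 27170591 to 27180261), best known for its role in the uterus and in blood cells, had 76 counts in the parental and 489 in the TRPV3-OE library. Its log2 ratio was 2.63 (2.28 to 3.0), or 6.19-fold higher. HOXA10 alone made up 4.40% of the parental HOX counts and 23.2% of those of the TRPV3-OE library. HOXA11 (ENSG00000005073), which acts in limb, kidney and uterus, had 38 and 178 counts, a log2 ratio of 2.17 (1.66 to 2.72). HOXA9, a gene of blood progenitors, was 3.03-fold higher at 13 and 41 counts (1.60, 0.67 to 2.63). The last gene, HOXA13, a factor of distal limb and genital tract, had 1 and 6 counts, and its interval (−0.51 to 8.05) spanned equality.

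HOXA4 had 9 and 60 counts, a 6.41-fold higher level (2.68, 1.66 to 3.88), while its neighbours differed less. HOXA3, which patterns the pharyngeal arches, had 286 and 508 counts (0.77, 0.56 to 0.99), and HOXA5, a gene of airway and lung formation, 88 and 129 (0.50, 0.09 to 0.90). HOXA2, a hindbrain and branchial arch gene, had 27 and 47 counts (0.74, 0.03 to 1.48). Between the higher genes lay 2 that were close to silent in both libraries, HOXA6 at 0 and 1 counts and HOXA7 at 6 and 3. The HOXA differences were thus not uniform along the cluster.

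Promoter sequence is shown for the 3 HOXA genes with the largest ratios among those with at least 20 summed counts, from RefSeq's starts on GRCh38.p14, all on the minus strand. The table held 20 of the 39 HOX genes. Capitals mark matches on either strand to the GC box GGGCGG, the CCAAT box, the TATA element TATAAA and the HOX-PBX site TGATNNAT. For HOXA11 the stretch shown lies between RefSeq's starts of HOXA11 and of its divergent antisense gene HOXA11-AS. In the gene models used for counting, HOXA11-AS runs from 27184518 to 27189293, so it starts inside HOXA11 and covers the stretch.
HOXA10, 250 bases before the start, chr7:27174321-27174570: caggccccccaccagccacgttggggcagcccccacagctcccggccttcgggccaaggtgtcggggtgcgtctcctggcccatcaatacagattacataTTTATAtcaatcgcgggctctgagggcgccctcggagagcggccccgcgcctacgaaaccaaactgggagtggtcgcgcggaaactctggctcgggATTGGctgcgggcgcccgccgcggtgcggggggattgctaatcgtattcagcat
HOXA11 to HOXA11-AS, 175 bases, chr7:27185233-27185407: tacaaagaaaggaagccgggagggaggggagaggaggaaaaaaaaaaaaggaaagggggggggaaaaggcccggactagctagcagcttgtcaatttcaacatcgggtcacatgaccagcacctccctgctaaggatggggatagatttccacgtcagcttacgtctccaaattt
HOXA4, 208 bases upstream of its exons, chr7:27130800-27131007: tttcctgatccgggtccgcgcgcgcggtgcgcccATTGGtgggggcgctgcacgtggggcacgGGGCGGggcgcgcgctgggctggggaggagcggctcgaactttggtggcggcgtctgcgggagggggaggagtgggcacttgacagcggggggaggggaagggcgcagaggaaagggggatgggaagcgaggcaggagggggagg

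HOXA10 has other annotated starts, and gene counts do not say which is used. The HOXA10 stretch shown held 1 TATAAA match, as did 10.7% of all promoter windows of that length, and 1 CCAAT match (32.0%). Both matches read on the strand opposite to HOXA10, and whether either acts in its promoter was not tested. HOXA4 held 1 GGGCGG match (36.7% of windows) and 1 CCAAT match (28.6%), and the HOXA11 interval none of the 4 motifs. CG dinucleotides numbered 24 before HOXA10 and 22 before HOXA4, against medians of 11 and 8 in windows of the same length, and 5 in the HOXA11 interval against a median of 8. The 3 genes therefore share no motif of the 4, and differ in CG content. HOXA11-AS, counted over that longer model, had 8 and 30 counts, a log2 ratio of 1.85 (0.69 to 3.19) beside 2.17 for HOXA11.

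**Figure D2:**
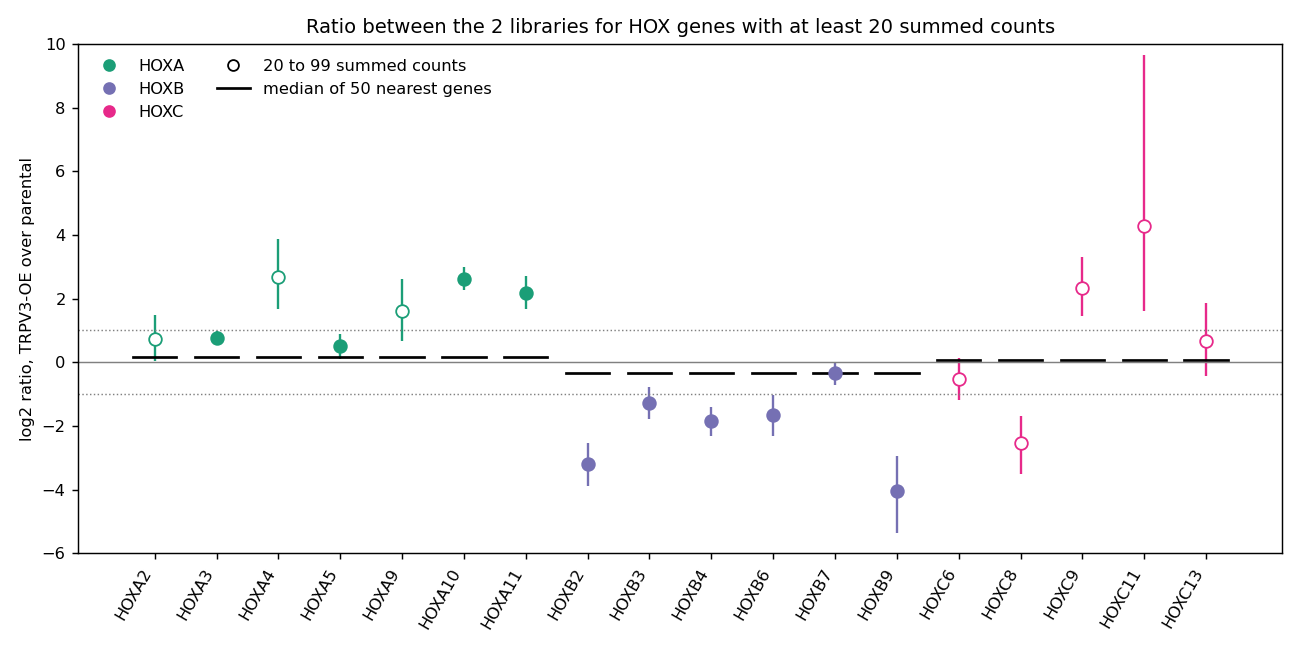
Log2 ratio of TRPV3-OE over parental (y axis) for the HOX genes described here with at least 20 summed counts, in cluster order (x axis), with exact 95% intervals. Open circles have 20 to 99 summed counts, dotted lines mark 2-fold and black bars the median of the 50 nearest measured genes; HOXA points lie above 0, HOXB points below 0, and HOXC points on both sides.

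The 10 HOXB genes lie on the minus strand of chromosome 17, from 48528526 to 48729178. Their sum was 848 parental and 280 TRPV3-OE counts, or 49.5 CPM (46.2 to 53.0) against 15.7 CPM (13.9 to 17.7), a 3.15-fold lower level (log2 ratio −1.65, −1.85 to −1.46). All 6 measured HOXB genes had ratios below 1 and 5 were called lower, where 5.35% of all measured genes were. HOXB9 (ENSG00000170689), a gene of thoracic patterning, had 110 and 7 counts, which is 16.3-fold lower (−4.03, −5.38 to −2.94). HOXB2 (ENSG00000173917), a hindbrain gene, had 192 and 22 counts, or 9.07-fold lower (−3.18, −3.89 to −2.54). These 2 genes stand at opposite sides of the expressed part of the cluster.

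Among the measured genes between them the differences were smaller. HOXB4, known for expanding blood stem cells, had 194 and 56 counts (−1.85, −2.30 to −1.41), and HOXB6 had 85 and 28 (−1.66, −2.33 to −1.03). HOXB3 had 112 and 48 counts (−1.28, −1.80 to −0.78), and its difference was under 2-fold, at −0.95, once the median of its 50 nearest genes was subtracted. HOXB7 was the exception, with 140 and 114 counts and an interval that held equality (−0.35, −0.72 to 0.01). HOXB8, inside the annotated span of HOXB7, had 13 parental counts and 0 in TRPV3-OE cells, which is at least 4.51-fold lower with the 13 counts taken as they stand and a floor of 3 counts per library. With the error of both counts the exact interval begins at 3.17-fold lower. The remaining genes were HOXB5, a gene of lung branching, at 2 and 5 counts, and HOXB1 and HOXB13 at 0 in both libraries. A count of 0 allows up to 0.175 CPM (parental) or 0.168 CPM (TRPV3-OE) by the limit of 3 counts, and 0.215 or 0.207 CPM by the upper end of the exact 2-sided interval.

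The 9 HOXC genes lie on the plus strand of chromosome 12, from 53938765 to 54056030, and their sums were alike at 160 and 159 counts (log2 ratio −0.07, −0.39 to 0.26). The equal sums covered members that went in opposite directions. HOXC4 to HOXC8 had 132 and 50 counts in sum (−1.46, −1.96 to −0.98), and HOXC9 to HOXC13 had 28 and 109 (1.90, 1.29 to 2.56). HOXC8, a gene of trunk patterning, had 73 and 13 counts, or 5.84-fold lower (−2.55, −3.52 to −1.68). HOXC9, its neighbour on the 5′ side, had 13 and 68 counts, or 5.03-fold higher (2.33, 1.46 to 3.31). HOXC11, a hindlimb gene, had 1 and 20 counts, a 19.2-fold ratio whose log2 interval ran from 1.62 to 9.64.

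The other HOXC genes differed less or were too sparse. HOXC6 had 48 and 35 counts (−0.51, −1.18 to 0.15) and HOXC13, a hair and nail gene, had 12 and 20 (0.68, −0.42 to 1.85), and both intervals held equality. HOXC4 had 11 and 2 counts (−2.52, −5.73 to −0.32), HOXC12 had 2 and 0, HOXC10 had 0 and 1, and HOXC5 was at 0 in both. No HOXC gene reached 100 summed counts, so the directions in this cluster rest on few reads. Without HOXC8, its member with the most counts, the cluster sum had a log2 ratio of 0.69 (0.30 to 1.09).

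The 9 HOXD genes on the plus strand of chromosome 2, from 176092891 to 176190907, had 1 count in sum in each library. HOXD12 carried the parental count and HOXD8 the TRPV3-OE count, and the other 7 genes were at 0 in both libraries. Transcripts read from the same region on the opposite strand were present, as HAGLR, an antisense RNA gene between HOXD3 and HOXD1, had 36 and 14 counts (−1.42, −2.42 to −0.49). HAGLROS, a noncoding gene inside the HAGLR span, had 7 and 0 counts.

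**Figure D3:**
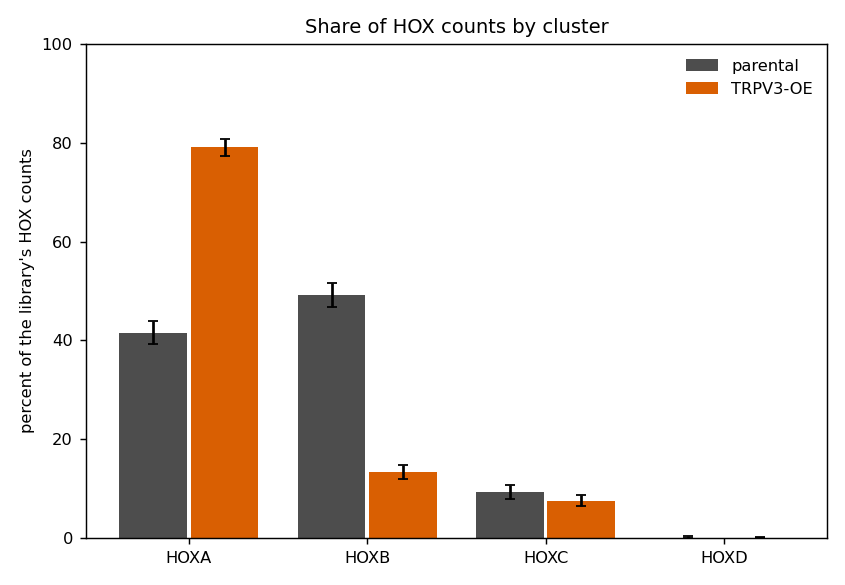
Percent of each library's HOX counts (y axis) that fell in each cluster (x axis), with exact binomial 95% intervals, for the parental (grey) and TRPV3-OE (orange) library. The HOXA bar goes from 41.5% to 79.1% and the HOXB bar from 49.1% to 13.3%.

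Shares within a library need no scaling between libraries. HOXA held 41.5% of parental HOX counts (39.2% to 43.9%) and 79.1% of those of TRPV3-OE cells (77.3% to 80.9%). The HOXB share was 49.1% (46.7% to 51.5%) and 13.3% (11.9% to 14.8%). HOXC held 9.27% (7.94% to 10.7%) and 7.54% (6.45% to 8.75%), with overlapping intervals, and HOXD 0.0579% and 0.0474%. The exchange between HOXA and HOXB is thus seen in the raw reads of each library.

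Grouped by number instead of cluster, paralog groups 9 to 13 had 267 and 830 counts in sum, a 2.99-fold higher level (1.58, 1.38 to 1.78). HOXA10 gave 489 of the 830, and without it the sums were 191 and 341, or 1.72-fold higher (0.78, 0.52 to 1.04). Groups 1 to 4 had 1004 and 951 counts (−0.13, −0.26 to −0.01), an interval that held equality under the 3 other scalings (−0.21 to 0.05 with total counts). Groups 5 to 8 had 455 and 329 (−0.52, −0.73 to −0.32). In groups 2, 3, 4 and 9 paralogs differed in direction. In group 9, HOXA9 (13 and 41) and HOXC9 (13 and 68) were higher, HOXB9 (110 and 7) was lower and HOXD9 was at 0, so the group's sums of 136 and 116 had an interval that held equality (−0.66 to 0.08). In group 4, HOXA4 was higher and HOXB4 lower. Likewise HOXA3 (0.77) was higher and HOXB3 (−1.28) lower in group 3, and HOXA2 (0.74) higher and HOXB2 (−3.18) lower in group 2. Group 8 was lower in sum, at 86 and 14 counts, and consisted of HOXB8, HOXC8 and a single HOXD8 read. Group 10 came almost wholly from HOXA10, with 490 TRPV3-OE counts in sum against 489 for HOXA10 alone.

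Besides the 39 members, the files annotate 59 genes within the 4 cluster spans, mostly antisense and other noncoding RNAs, and 47 of them had no read. Only 2 were measured, and neither was called. HOTAIRM1, a noncoding RNA on the opposite strand at the 3′ end of the HOXA cluster, had 126 and 86 counts (−0.61, −1.02 to −0.20), the opposite direction to the HOXA genes. HOXA-AS2, on the opposite strand within HOXA3, had 43 and 70 counts (0.65, 0.08 to 1.23), and HOXA10-AS had 38 and 40 (0.02, −0.66 to 0.70) beside the 6.19-fold difference of HOXA10. HOXB-AS1, antisense to HOXB2 and HOXB3, had 38 and 6 counts, or 6.58-fold lower (−2.72, −4.25 to −1.47). HOTTIP, at the 5′ end of HOXA, was at 0 in both libraries, and HOTAIR of the HOXC cluster had 0 and 2 counts. Of the 6 genes with at least 20 counts, HOXA11-AS was called higher, and HOXB-AS1 and HAGLR lower, by the rule with that minimum. Of all genes at that minimum 7.85% were called higher and 6.76% lower.

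**Figure D4:**
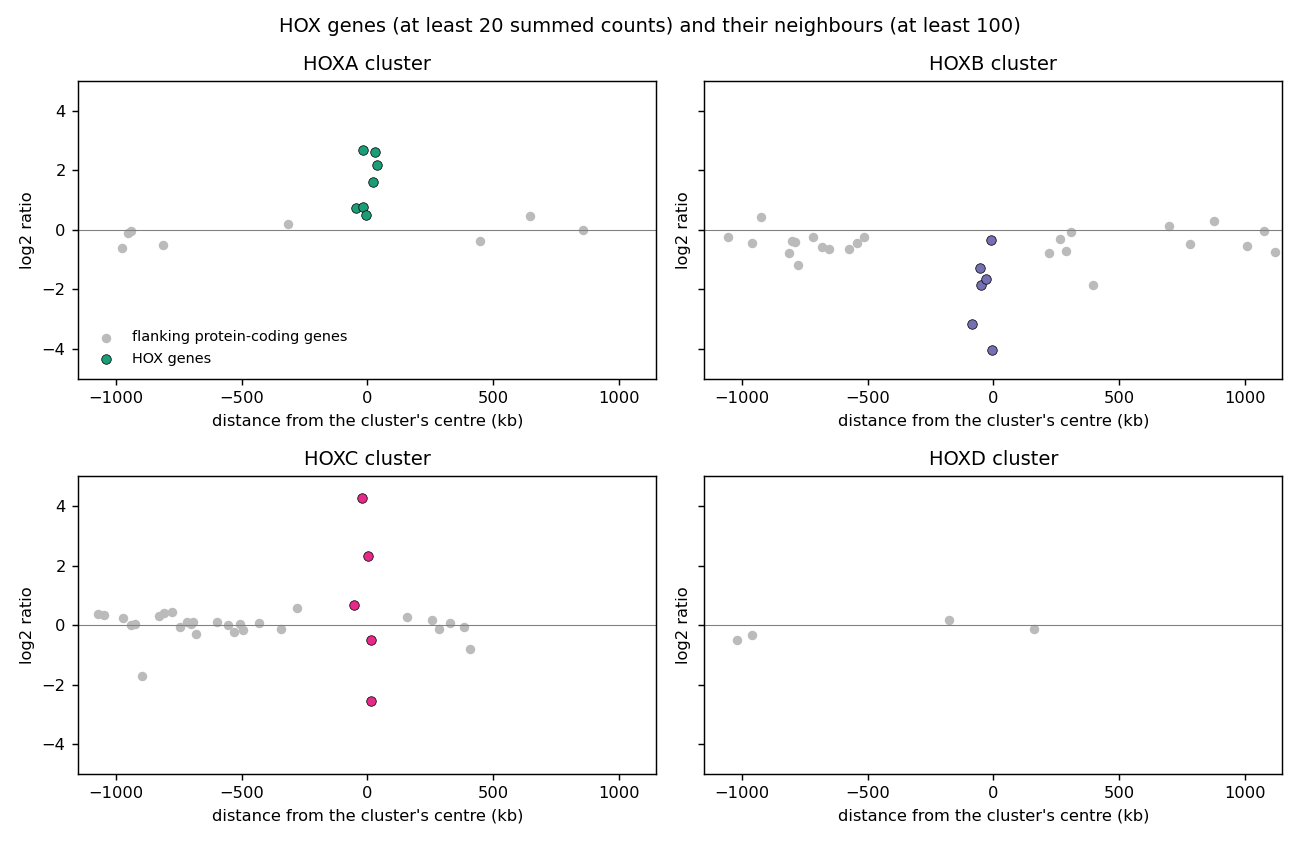
Log2 ratio (y axis) of the HOX genes described here with at least 20 summed counts (coloured) and of protein-coding genes within 1 Mb of each cluster with at least 100 (grey), by distance from the cluster's centre in kb (x axis). In the HOXA, HOXB and HOXC panels some HOX points lie beyond all grey points, and the grey points around HOXB have a median of −0.44.

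Among 96 protein-coding genes within 1 Mb of a cluster 64 were measured, with 0 called higher, 3 lower and a median log2 ratio of −0.11. The share called lower is near the 5.35% of all measured genes, and 5.31% of those were called higher. The median was −0.08 over the 8 measured genes around HOXA, −0.44 over 24 around HOXB, 0.06 over 28 around HOXC and −0.25 over 4 around HOXD. Next to HOXA, SKAP2 had 552 and 664 counts (0.21) and HIBADH 1079 and 867 (−0.37), and EVX1, the homeobox gene at the 5′ end, was at 0. Around HOXB 21 of the 24 ratios were below 1, where 6072 of all 11466 measured genes had ratios below 1. Ratios below 1 were thus not limited to the HOX genes of that stretch. IGF2BP1, an RNA-binding protein gene of fetal tissue, had 1281 and 367 counts there (−1.86, −2.03 to −1.69), and SP6 had 76 and 35 (−1.17, or −0.89 after the local median was subtracted). IGFBP6, near HOXC, had 508 and 162 counts (−1.71, −1.97 to −1.45), and ITGA5 had 2842 and 1671 (−0.82). The ratios of IGF2BP1 and IGFBP6 lay farther from 1 than those of HOXB3, HOXB6, HOXA3 and HOXA5.

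The 50 measured genes nearest to each cluster served as its local level (median 0.17 at HOXA, −0.33 at HOXB, 0.08 at HOXC). Relative to it the HOXA sum had a log2 ratio of 0.99 (0.87 to 1.12), just under 2-fold, and the HOXB sum −1.33 (−1.53 to −1.13). HOXA10 was then at 2.46, HOXA11 at 2.0, HOXB2 at −2.85 and HOXB9 at −3.70. HOXB7 was at −0.02, which is the level of its surroundings.

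HOX proteins bind DNA together with TALE homeodomain proteins of the PBX, MEIS and PKNOX families. Of the 9 genes 6 were measured, with 0 called higher and 1 lower (median −0.16), where 5.31% and 5.35% of all measured genes were called. MEIS3 had 107 and 24 counts, or 4.64-fold lower (−2.21, −2.92 to −1.56). PBX3 had 266 and 424 counts (0.62, 0.39 to 0.84), MEIS1 242 and 329 (0.39, 0.14 to 0.63), MEIS2 595 and 538 (−0.20, −0.37 to −0.03) and PBX2 794 and 726 (−0.19).

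All 38 Polycomb and Trithorax genes of the list were measured, with 2 called higher, 2 lower and a median log2 ratio of −0.06. These shares are near those of all measured genes (5.31% higher and 5.35% lower). CBX7 (52 and 150 counts, 2.77-fold) and CBX6 (1949 and 4061 counts, just at 2-fold) were higher, and CBX2 (322 and 153 counts, 2.19-fold) was lower, all 3 being chromodomain subunits of Polycomb repressive complex 1. JARID2, a partner of Polycomb repressive complex 2, had 1202 and 509 counts (−1.30, −1.45 to −1.15), and −0.57 once its 50 nearest genes on chromosome 6 were subtracted. Of the methyltransferase complex, EZH2 at 0.07, EED at 0.02, RBBP4 at −0.11 and SUZ12 at −0.25 were near equal. RBBP7, of the same complex, was lower, with 4205 and 2404 counts (−0.86, −0.94 to −0.79). It was at −0.16 once its 50 nearest genes on chromosome X were subtracted. The activating side lay on both sides of 1. KMT2A, the methyltransferase that maintains HOX expression, had 1101 and 1602 counts (0.48, 0.37 to 0.60), with KMT2C at 0.85, KMT2D at 0.79 and KMT2B at −0.04. MEN1 was at −0.23, ASH2L at −0.40 and WDR5 at 0.35. The demethylase gene KDM6A was at −0.57, but at 0.25 once its 50 nearest genes on chromosome X were subtracted. Its paralog KDM6B had 502 and 721 counts (0.47, 0.30 to 0.63), or 0.52 after the same subtraction on chromosome 17.

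Retinoic acid switches on 3′ HOX genes in embryos, and CDX factors act on central ones. Of 20 genes of this list 9 were measured, and 1 was called higher and 0 lower, beside 5.31% and 5.35% of all measured genes. The 9 ratios were all above 1, with a median of 0.43, where 47.0% of all measured genes had ratios above 1. DHRS3, which turns retinal back into retinol, had 1971 and 4638 counts (1.18, 1.1 to 1.26), RDH10, which makes retinal, had 327 and 581 (0.77, 0.58 to 0.97), and CRABP2, a retinoic acid carrier, had 131 and 213 (0.65, 0.32 to 0.97). RARG had a log2 ratio of 0.43 and RARA one of 0.43, while RARB, a receptor gene and retinoic acid target, had 29 parental counts and 0 in TRPV3-OE cells, at least 10.1-fold lower against the floor of 3 counts and from 7.66-fold lower by the exact interval. CYP26B1, which degrades retinoic acid, had 19 and 50 counts. CDX1, CDX2 and CDX4 were at 0 in both libraries.

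**Figure D5:**
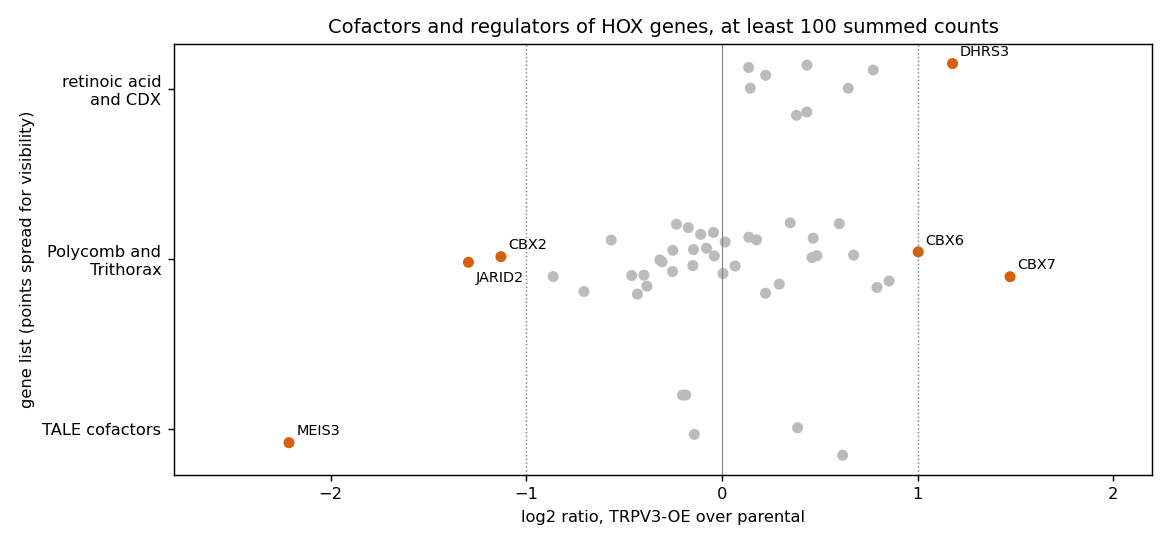
Log2 ratio of TRPV3-OE over parental (x axis) for measured genes of 3 lists (y axis, points spread vertically for visibility), with called genes in orange and named, and dotted lines at 2-fold. MEIS3 lies farthest from 0 at −2.21, and the retinoic acid points all lie to the right of 0.

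The counting of HOX genes is limited by their overlap. Reads that fall on exons of several genes of the same strand are in no gene's count, and such exons made up 80.5% of HOXD4, 62.2% of HOXD3, 59.9% of HOXC5 and 31.0% of HOXA4, but 9.93% of HOXA10 and 0% of HOXA11, HOXB2, HOXB7, HOXB9 and HOXC8. The zeros of HOXC5, HOXD3 and HOXD4 therefore cover only part of each gene. Reads with several alignments are likewise left out, and homeoboxes of paralogs are alike in sequence. Over 569 pairs of HOX genes in different clusters, the longest exact stretch shared by their transcripts was 62 bases, with a median of 15. Only 1 pair shared at least 50 bases. How many reads were lost this way was not tested.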

How the data were processed

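Per the file headers, the authors made raw counts of reads per gene with Ensembl 87 gene models on GRCh38.p7, using featureCounts 1.5.0-p3 set to opposite-strand reads. The headers show no option for reads with several alignments or over several genes, so these are left out by default, which lowers overlapping HOX genes. STAR and DESeq2 are named per the submitters' processing notes, and the deposited counts are not normalised. Libraries were scaled with TMM factors (0.981 and 1.02, edgeR 4.0.16, R 4.3.3). With 1 library in each group there is no spread to estimate, so no test was run. CPM carry exact Poisson intervals, and log2 ratios exact conditional binomial (Clopper-Pearson) intervals. Symbols came from a gene name table, biotypes and transcripts from GENCODE 29, promoters from RefSeq. The genes to be named were all HOX genes, TRPV3, other cluster genes with at least 20 counts, and in each other list the called genes and up to 4 with the largest ratios. EZH2, EED, SUZ12, RBBP4, RBBP7, KMT2A, KMT2B, KMT2C, KMT2D, MEN1, ASH2L, WDR5, KDM6A, KDM6B, PBX2, RARA, RARB, CYP26B1, CDX genes, SKAP2, HIBADH, EVX1, HAGLROS, HOTTIP and HOTAIR were added after their values were seen. Sums and counts cover all members of each list, though 1 HOX gene and 1 cofactor are not reported here by name. Members and lists were chosen with earlier results of these data known. Alternatives were other scalings (total counts, upper quartile, DESeq2 1.42.0), minimums of 1 and 20, limits of 1.5-fold and 4-fold, a prior count of 5, the local median and each cluster without its top gene. Python 3.11.15 with numpy 2.4.6, scipy 1.17.1 and pandas 2.3.3 was used.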

Additional observations from a re-analysis of the deposited data

How the results depend on the processing

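No paired analysis was possible because there is 1 library a group, and none could be left out. For the 19 HOX genes with at least 20 counts, every ratio stayed within its interval under the 3 other scalings, the prior count of 5 and the subtraction of the 50 nearest genes. Of 205 values of named genes 6 moved out of their interval, all under the local subtraction (PBX3, JARID2, CBX6, DHRS3, ITGA5 and IGF2BP1), and no called value reversed. The median of measured genes shifted by at most 0.0582 between scalings. HOX genes called higher (2) became 6 with minimums of 1 and 20 counts, and HOX genes called lower (5) became 8 with a minimum of 1, 2 at 4-fold and 4 (without HOXB3) after the local subtraction. Over all genes, 609 higher and 614 lower became 1347 and 1121 with a minimum of 1, 1094 and 942 with 20, 1455 and 1627 at 1.5-fold, and 151 and 159 at 4-fold. TALE genes called (1) became 2 with either minimum and at 1.5-fold. Polycomb and Trithorax genes called (4) became 10 at 1.5-fold and 0 at 4-fold. Retinoic acid and CDX genes called (1) became 3 with either minimum and at 1.5-fold, and 0 at 4-fold. Non-HOX genes inside the clusters called (0) became 4 with a minimum of 1, 3 with 20 and 2 at 1.5-fold. Flanking genes called (3) became 7, 6, 11 and 0 with the minimums of 1 and 20 and at 1.5-fold and 4-fold. More or fewer genes qualify under these limits by construction. With the local median subtracted the HOXA sum went from 1.16 to 0.99 and the HOXB sum from −1.65 to −1.33. Without the gene with the most counts the log2 ratio was 1.37 for HOXA (without HOXA3), −2.15 for HOXB (without HOXB7) and 0.69 for HOXC (without HOXC8). Paralog groups 9 to 13 went from 1.58 to 0.78 without HOXA10, an alternative chosen after seeing the data. The HOXD sum, 1 count in each library, was not varied.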
